A study of Homo sapiens with 6 samples.

Results

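CD2, CD58, CD48, CD5, CD6 and CD7 encode surface proteins by which T cells adhere to other cells and tune the signal of the T-cell receptor. Open chromatin around these 6 genes, of 20037 protein-coding genes in all, was described in Jurkat, a long-established line of leukaemic human T cells. Peaks were taken wherever they overlapped the RefSeq span of a gene extended by 50 kb to each side, a rule that uses position only. Merged wherever they overlapped by at least 1 bp, they gave 55 open regions of the 69562 in the series, with 1 region shared by the neighbouring windows of CD5 and CD6. ATAC-seq was used, which marks accessible DNA by the places where a transposase can insert adapters. Per the labels, 3 libraries were of simulated microgravity (SMG 1 to SMG 3) and 3 of normal gravity (NG 1 to NG 3). The labels name no other treatment for either group. The nuclei of 50000 cells per library, not intact cells, were turned in a random positioning machine at 30 degrees per second during the transposition (30 min at 37 °C) in the SMG group. All libraries thus come from 1 cell line, and the labels name no separate cultures. Every p therefore reflects the spread among these 6 libraries alone, and that spread may be technical.

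CD2 and its ligands belong to the immunoglobulin superfamily. On human T cells CD2 binds CD58 on the partner cell, while CD48, a lipid-anchored relative, is the ligand of CD244 and in rodents also of CD2. CD5 and CD6 are built of scavenger receptor cysteine-rich domains, dampen or modulate T-cell receptor signalling, and sit next to each other in the genome. CD7 is an immunoglobulin-like protein that appears early in the T lineage and binds SECTM1. Loss or change of these markers on the cell surface is used in the diagnosis of T-cell leukaemia and lymphoma. The hg38 spans are chr1:116754430-116769229 for CD2, chr1:116514534-116571026 for CD58, chr1:160678746-160711822 for CD48, chr11:61093963-61127852 for CD5, chr11:60971680-61020377 for CD6 and chr17:82314873-82317608 for CD7.

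The 3 SMG libraries held 39624 to 42399 peaks and the 3 NG libraries 37782 to 43713. The lists give no read counts, so depth was recovered from the deposited fold enrichments and p-values as the genome-wide background pileup. It was 1.59 to 1.73 in SMG libraries and 1.17 to 1.77 in NG libraries, with the lowest value in NG 1 and the highest in NG 2. Whether these pileups count reads or fragments is not given. Peak scores move with depth, so each peak is given as its score percentile, its rank by −log10 q-value from 0 to 100 within its own library. Of 10 T cell marker genes, 9 had a peak within 1 kb of a gene end in all 6 libraries, and TRAC had none. Of all protein-coding genes, 46.6% had such a peak in all 6 libraries and 39.7% in no library. None of the 6 NK cell markers had one in any library, nor did 7 of 8 myeloid and 5 of 8 B cell markers, among them CD14, CD33 and MS4A1. The exceptions in all 6 libraries were CD68, EBF1 and BLK. The B cell marker CD22 had a gene-end peak in 2 SMG libraries and in no NG library. Among erythroid markers HBB had none, and KLF1 and ALAS2 had one in 1 SMG and 2 NG libraries each. Signal below the calling threshold is not in the lists, so the absence of a peak is not evidence that the chromatin was closed.

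At the start of CD2 a weak peak was called in every SMG library and in no NG library. Because this difference lies at a promoter, the bases before the RefSeq start are shown for CD2 together with those of its ligands CD58 and CD48, whose promoters gave other patterns. Each run is the 250 bases before the start, 5′ to 3′ on the strand of the gene, from RefSeq (GRCh38.p14). The spans are chr1:116754180-116754429 (plus strand) for CD2, chr1:116571027-116571276 (minus strand) for CD58 and chr1:160711823-160712072 (minus strand) for CD48. Capitals mark matches on either strand to 4 short motifs. These are the core of ETS factors, GGAA, a motif of zinc-finger factors of the early blood lineages, AGATAA, the E-box of helix-loop-helix factors, CANNTG, and the box of Sp1 and KLF factors, GGGCGG. Matches on the other strand appear as the reverse complement.
CD2: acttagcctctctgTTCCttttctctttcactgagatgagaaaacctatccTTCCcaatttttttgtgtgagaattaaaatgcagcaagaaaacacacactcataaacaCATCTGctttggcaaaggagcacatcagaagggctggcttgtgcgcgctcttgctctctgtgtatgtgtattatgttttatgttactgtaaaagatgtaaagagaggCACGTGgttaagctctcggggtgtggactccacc
CD58: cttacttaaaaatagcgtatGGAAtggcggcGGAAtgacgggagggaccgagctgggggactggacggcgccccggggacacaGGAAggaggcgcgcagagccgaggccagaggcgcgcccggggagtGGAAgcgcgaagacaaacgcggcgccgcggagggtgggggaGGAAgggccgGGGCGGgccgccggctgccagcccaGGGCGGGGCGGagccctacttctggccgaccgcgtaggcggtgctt
CD48: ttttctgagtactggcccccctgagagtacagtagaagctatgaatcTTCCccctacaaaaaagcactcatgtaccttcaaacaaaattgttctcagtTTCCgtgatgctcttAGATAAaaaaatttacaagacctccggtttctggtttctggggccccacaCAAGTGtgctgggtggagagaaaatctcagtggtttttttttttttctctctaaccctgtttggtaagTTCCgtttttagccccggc

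The run of CD2 holds 2 E-boxes and 2 GGAA cores, and 42.8% of its bases are G or C. CD48 is similar in composition, at 43.2%, with 1 E-box, 1 AGATAA and 3 GGAA cores. CD58 is rich in G and C, at 72%, and holds 5 GGAA cores and 3 GGGCGG matches, 2 of which overlap. The median over the 15843 protein-coding promoters in the same RefSeq table was 62.4%. These matches are common: GGAA was found on either strand in 92.5% of those promoters, CANNTG in 57.8%, GGGCGG in 56%, and AGATAA in 6.84%. Searched on both strands and not in these 3 windows were the RUNX motif TGTGGT, held by 8.89% of promoters, its variant TGCGGT (held by 6.9%), the AP-1 motif TGACTCA (held by 3.17%), the CREB motif TGACGTCA (held by 2.32%) and the core promoter motif TATAAA (held by 9.23%). A match describes the letters and does not show a bound site.

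At the start of CD2, the adhesion receptor of T cells, the region chr1:116754028-116754524 lay across the RefSeq start. Its peaks stood at score percentiles of 43.7, 26.8 and 31.2 in SMG 1, SMG 2 and SMG 3, and no peak was called in NG 1, NG 2 or NG 3. The groups therefore did not overlap, but all 3 peaks were weak, in the lower part of their own lists. They were 450, 389 and 417 bp wide, with fold enrichments of 4.97, 4.27 and 4.42 over the local background. Their summits lay 21, 70 and 239 bases before the start in SMG 1, SMG 2 and SMG 3. The recovered summit pileups were 17, 16 and 18, over local backgrounds of 2.62, 2.98 and 3.3. A peak in every SMG and no NG library was found in 0.411% of all regions and in 9 of the 15843 promoter windows (0.0568%, window from 250 bases before to 50 after the start). The reverse was found in 11 promoter windows (0.0694%). With 3 against 3 libraries no exact permutation p, two-sided, can be below 0.1. NG 2, the library with the highest recovered background, had no peak there, and the part of depth in the missing NG peaks was not tested. At a deposited score of at least 100 no SMG peak was left in this region.

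CD2 was open more strongly at its other end. The region chr1:116769208-116770136 overlapped the last bases of the gene and ran on past it, and it was the strongest of the 55 regions. Its percentiles were 94.3, 94.6 and 85.8 in SMG 1, SMG 2 and SMG 3, against 96.7, 94.8 and 91.9 in NG 1, NG 2 and NG 3. The groups overlapped, with means of 91.6 ± 4.98 in SMG and 94.4 ± 2.44 in NG libraries (SD, n = 3 each, two-sided exact permutation test, p = 0.5). The summits of all 6 libraries lay past the end of the gene and within 137 bp of each other. As background, a locus control region of human CD2 was mapped downstream of the gene in transgenic mice, and whether it covers this region was not tested. Another region, within the gene (chr1:116763147-116764434), stood at 52.6, 48.4 and 75.2 in SMG libraries 1 to 3, against 39.1, 58.8 and 62.6 in NG libraries 1 to 3. It was held by all 6 libraries, split into a pair of peaks in SMG 2 and in NG 3, and its groups overlapped (exact permutation p = 0.7, two-sided).

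**Figure D1:**
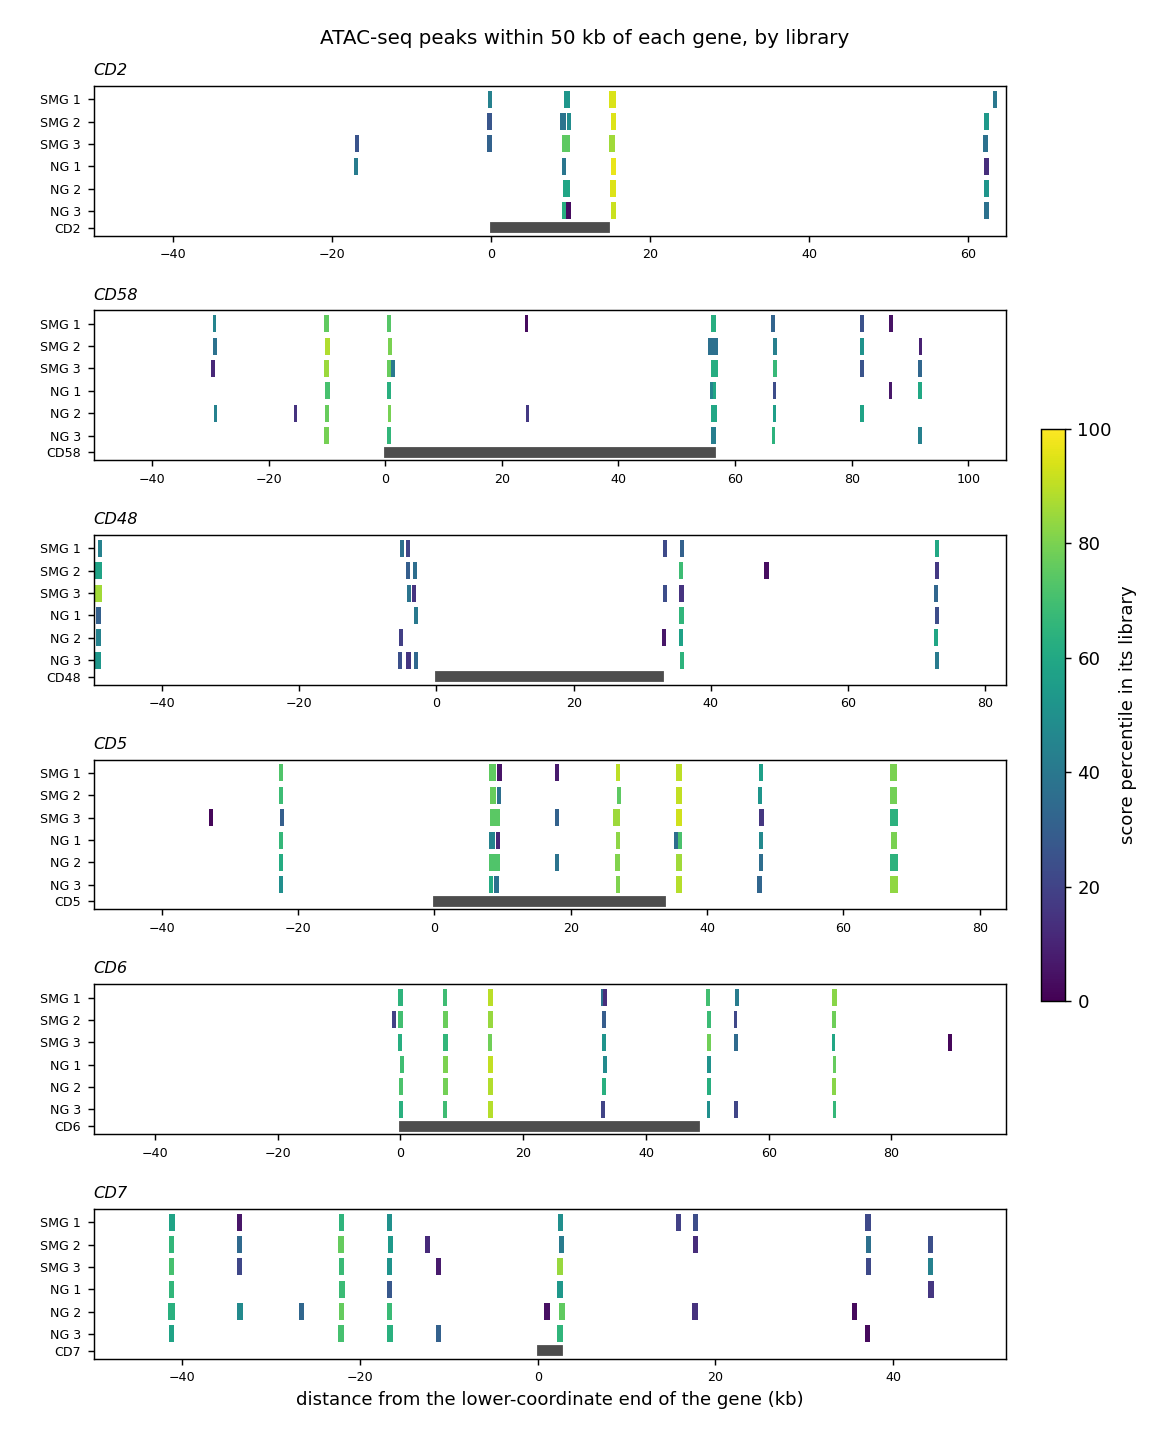
Position of every called peak in the windows of the 6 genes, in kb from the lower-coordinate end of the gene (x axis), by library (rows, SMG above NG), with the gene as a dark bar and peaks coloured by score percentile; peaks narrower than 0.6 kb are drawn 0.6 kb wide. At the start of CD2 (0 kb) the 3 SMG rows carry a weak peak and the NG rows none, while the region at its other end is strong in all 6.

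CD58, the ligand of CD2 on antigen-presenting and many other cells, was open at both ends in all 6 libraries. The region over its start (chr1:116569853-116571576) also overlapped the long noncoding gene LOC124904385. Its percentiles were 62.6, 36.4 and 62 in SMG 1, SMG 2 and SMG 3, against 58.9, 59.4 and 42.3 in NG 1, NG 2 and NG 3. The means of 53.6 ± 15 in SMG and 53.5 ± 9.72 in NG libraries (SD, n = 3 each) differed by 0.109, far less than either SD (exact permutation p = 1, two-sided). The strongest summit lay 543, 96 and 555 bases inside the gene in SMG 1, SMG 2 and SMG 3. It lay 5 bases before the start in NG 1, and 495 and 560 bases inside in NG 2 and NG 3.

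The far end of CD58 had a region inside the gene (chr1:116514943-116515672), 409 bp from that end. It stood at 73.5, 79.7 and 76.8 in SMG 1, SMG 2 and SMG 3, against 63.2, 79.3 and 66 in NG 1, NG 2 and NG 3. Beyond that end, 9.43 kb outside the gene, the region chr1:116503978-116505102 stood at 75.5, 88.1 and 84.9 in SMG libraries, against 71, 76.9 and 78.9 in NG libraries, each in the order 1 to 3. Both were higher on average in SMG libraries, by 7.15 and 7.2 percentile points, with overlapping groups (exact permutation p = 0.3 for both, two-sided). Of the 11 regions in this window, 4 were nearest to a gene end of IGSF3, a neighbouring immunoglobulin superfamily gene, and not to CD58.

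CD48, which is anchored in the membrane by a lipid and binds CD244, had weak and uneven opening at its start. The region across the start (chr1:160711753-160712338) held peaks at percentiles of 22.4 in SMG 1 and 23.4 in SMG 3, none in SMG 2, and 6.07 in NG 2, with none in NG 1 and NG 3. No region held by all 6 libraries touched the CD48 gene. The nearest one lay 2.34 kb before the start (chr1:160714162-160714749). It stood at 30.8, 68.5 and 15.2 in SMG 1, SMG 2 and SMG 3, against 65.3, 57.7 and 64.7 in NG 1, NG 2 and NG 3. SMG 1 and SMG 3 were below every NG library and SMG 2 above them, so the groups overlapped (means 38.2 ± 27.4 and 62.6 ± 4.21, SD, n = 3 each, two-sided exact permutation test, p = 0.4). The other regions held by all 6 libraries in this window lay in SLAMF1 and SLAMF7, relatives of CD48 in the same gene cluster, at mean percentiles of 52.7 and 38.8. Past the far end of CD48, between 2.88 and 4.87 kb from it, 3 weak regions were held by 3 or 4 libraries each, at mean percentiles of 25.9 to 31.1.

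CD5, an inhibitory receptor of T-cell receptor signalling, had no peak within 1 kb of either end of its RefSeq span in any library. Yet 2 regions inside the span were open in all 6. The nearer to its lower-coordinate end (chr11:61101989-61103834) lay 8.03 kb inside it. It stood at 75.5, 76.9 and 74.2 in SMG 1, SMG 2 and SMG 3, against 44.8, 72.6 and 61.2 in NG 1, NG 2 and NG 3, so every SMG library was above every NG library. The means were 75.6 ± 1.32 in SMG and 59.5 ± 14 in NG libraries (SD, n = 3 each), a difference of 16 percentile points (exact permutation p = 0.1, two-sided, adjusted p = 0.962 over the 24103 regions held by all 6 libraries). The lowest value was in NG 1, the shallowest library. The other region inside CD5 (chr11:61120205-61121358) was stronger, at 90, 75.1 and 85.3 in SMG libraries 1 to 3, against 83.1, 81 and 80.6 in NG libraries 1 to 3, and the groups overlapped (exact permutation p = 0.7, two-sided). Its summits fell within 30 bp of each other in the 6 libraries. The RefSeq promoter table did not hold CD5, so whether a region inside the span lies at a transcript start was not tested. A gene end without a peak in any library was the state of 39.7% of protein-coding genes. A region held by all 6 libraries inside such a gene was found for 1635 genes, and 2 or more for 541 genes (2.7% of all).

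The strongest region near CD5 belonged by position to another gene. It lay 1.5 kb past the higher-coordinate end of CD5 and across an end of VPS37C, a subunit of the endosomal sorting machinery (chr11:61129354-61130316). It stood at 90, 90.8 and 92.9 in SMG 1, SMG 2 and SMG 3, against 71.2, 85.6 and 89 in NG 1, NG 2 and NG 3. Every SMG library was above every NG library here too, by 9.27 percentile points on average (exact permutation p = 0.1, two-sided, adjusted p = 0.962). Of the 6 regions held by all libraries in the window of CD5, 3 had an end of VPS37C as their nearest gene end.

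CD6, the receptor of the adhesion molecule ALCAM, was open along the gene. Of the 9 regions in its window 6 were held by all 6 libraries, and 4 of these touched the gene. At its lower-coordinate end (chr11:60971298-60972210) the percentiles were 64.6, 69.6 and 62.8 in SMG 1, SMG 2 and SMG 3, against 69.1, 71.5 and 63.5 in NG 1, NG 2 and NG 3. The groups overlapped, with SDs of 3.56 in SMG and 4.11 in NG libraries (n = 3 each, exact permutation p = 0.5, two-sided).

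The strongest region in CD6 (chr11:60985989-60986813), 14.3 kb inside, stood at 89.5, 84.6 and 78.4 in SMG 1, SMG 2 and SMG 3, against 90.9, 88.4 and 88.8 in NG 1, NG 2 and NG 3. It overlapped between groups (exact permutation p = 0.3, two-sided). A region 6.91 kb inside (chr11:60978589-60979472) stood at mean percentiles of 70.7 ± 5.78 in SMG and 76 ± 6.05 in NG libraries (SD, n = 3 each, two-sided exact permutation test, p = 0.3), with summits within 26 bp of each other, the narrowest range of the 25 regions held by all libraries.

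Past the higher-coordinate end of CD6, at 1.26 kb, the region chr11:61021637-61022256 stood at 69.6, 68.2 and 78.5 in SMG 1, SMG 2 and SMG 3, against 51.3, 62.5 and 49.2 in NG 1, NG 2 and NG 3. Every SMG library was above every NG library, by 17.8 percentile points on average (exact permutation p = 0.1, two-sided, adjusted p = 0.962). Together with the regions in CD5 and at VPS37C, 3 of the 25 regions held by all 6 libraries had every SMG above every NG library, and 0 the reverse. Over the whole series the shares were 5.34% and 5.06% of 24103 regions, and the smallest adjusted p over them was 0.962.

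CD7, an early marker of the T lineage, is the shortest of the 6 genes, at 2.74 kb. The region across its higher-coordinate end (chr17:82317020-82317953) stood at 49.4, 41.4 and 84.5 in SMG 1, SMG 2 and SMG 3, against 53.2, 75.7 and 65.4 in NG 1, NG 2 and NG 3. SMG 3 held the highest value and SMG 2 the lowest, so the groups overlapped (means 58.4 ± 23 and 64.8 ± 11.2, SD, n = 3 each, two-sided exact permutation test, p = 0.7). Summits agreed to within 54 bp. A weak peak inside the gene was called in NG 2 alone, at a percentile of 4.02. The window of CD7 held the most regions, 14, with 4 of them in all 6 libraries and 5 in a single one. The nearest gene end was that of CD7 for 5 of them and otherwise that of CSNK1D, a protein kinase, SECTM1 or TEX19. SECTM1, the neighbour that encodes a ligand of CD7, had no peak within 1 kb of either end in any library. Farther in, 2 weak regions overlapped SECTM1. The one 1.03 kb from its end, just past that limit, had peaks in SMG 1, SMG 2 and NG 2 (mean percentile 16.7). The one 3.11 kb from its end had a peak in SMG 1 only (19.4).

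**Figure D2:**
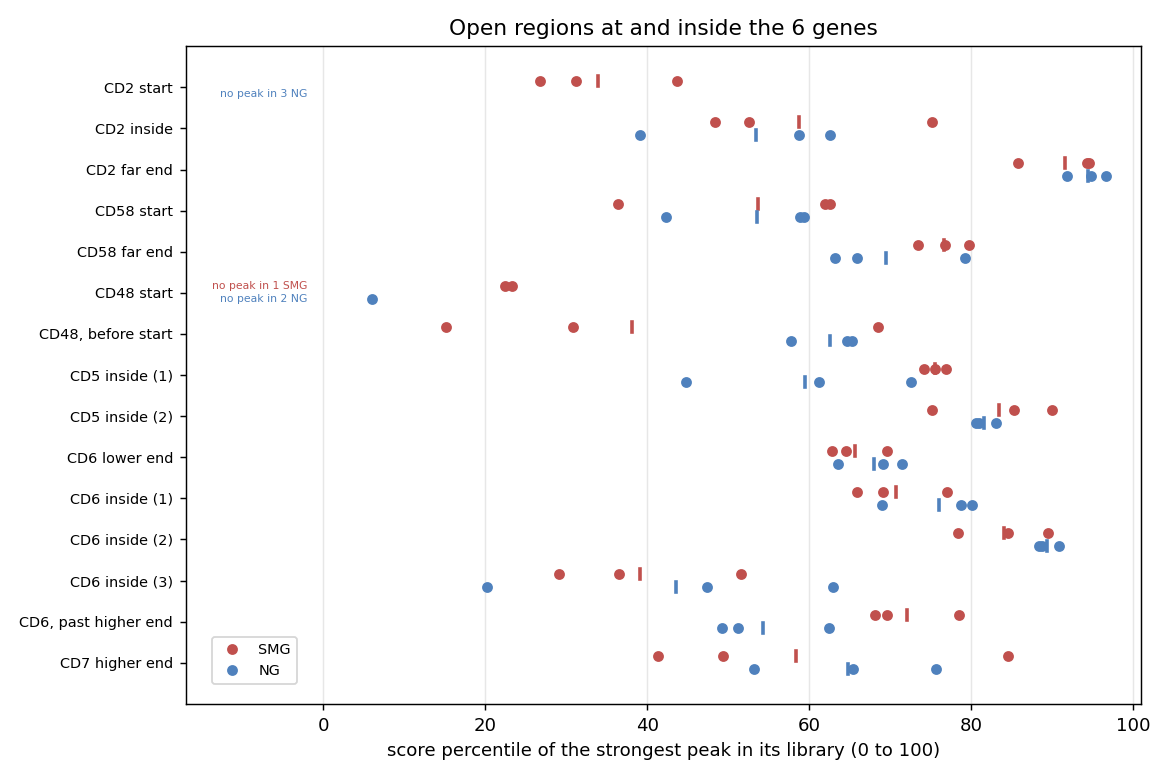
Score percentile of the strongest peak (x axis, 0 to 100) in 15 regions at, inside or next to the 6 genes, with SMG libraries above NG libraries in each row; points are libraries and short bars are means of 3 libraries. The start of CD2 has 3 SMG points between 26.8 and 43.7 and no NG peak, while at its far end all 6 points lie between 85.8 and 96.7.

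Taking the 6 windows together, with each peak counted once, SMG libraries held more peaks than NG libraries. There were 42 in each of SMG 1, SMG 2 and SMG 3, against 34, 38 and 35 in NG 1, NG 2 and NG 3. The groups did not overlap (means 42 ± 0 and 35.7 ± 2.08, SD, n = 3 each, difference 6.33, exact permutation p = 0.1, two-sided, the smallest the design allows). With windows of 10 kb to each side the difference was 2.67 peaks (exact permutation p = 0.3, two-sided). Per 10000 peaks of the library, a scale chosen after seeing these counts, the values were 9.95, 9.91 and 10.6 in SMG 1 to SMG 3, against 9, 8.69 and 8.62 in NG 1 to NG 3. The median percentile of the peaks in the windows was 48.1 ± 1.29 in SMG and 56.5 ± 3.74 in NG libraries (exact permutation p = 0.1, two-sided), and at a score of at least 100 the difference in number was −0.333 peaks. The difference in median percentile was −8.44 with these windows, −5.73 with 10 kb and −3.67 with 100 kb windows (exact permutation p = 0.4 and 0.3 for the other windows, two-sided). Bases under peaks came to 23.5 ± 1.09 kb in SMG and 19.4 ± 3.8 kb in NG libraries (SD, n = 3 each, two-sided exact permutation test, p = 0.2), and NG 2 with 23.4 kb lay within the SMG range. The difference of 4.05 kb was 2.27 kb without NG 1, 6.06 kb without NG 2, and 1.26 kb at a score of at least 100.

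The same peaks can be counted by how many libraries held a region, which is a recount and not a separate measurement. Of the 55 regions 18 (32.7%) were held by more SMG than NG libraries, close to the 28.2% of the whole series, and 6 (10.9%) by more NG than SMG libraries, against 27.1% of the series. A peak in 3 SMG libraries and 1 NG library was found in 6 of the 55 regions (1.41% of the series) and the reverse in 0 (0.896%). These 6 regions lay near CD58 (1), IGSF3 (1), CD48 (1), CD6 (1), CSNK1D (1) and TEX19 (1), by nearest gene end. The start of CD2 was the 1 region called in each SMG library and absent from the NG lists, and 0 regions showed the reverse (0.26% of the series). Regions held by all 6 libraries numbered 25 of 55, or 45.5%, against 34.6% of the series.

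By gene, the number of peaks in the window overlapped between groups except for CD6. CD6 had 8 peaks in each SMG library, against 6, 6 and 7 in NG 1, NG 2 and NG 3 (difference 1.67, exact permutation p = 0.1, two-sided, adjusted p = 1 over 20037 gene windows). The 8 peaks were not the same regions in each SMG library. In SMG 1 the region chr11:61004449-61005209 was split into 2 peaks. SMG 2 and SMG 3 each held a region called in no other library, at percentiles of 19.4 and 1.58. With 10 kb windows, and with an equal number of peaks per library, the difference was 1.33 peaks in both cases and the exact permutation p 0.2. At a score of at least 100 the difference was 0.333 peaks. Every SMG window was above every NG window for 1.85% of protein-coding genes, and below for 0.843%. CD2 had 4, 5 and 5 peaks in SMG 1 to SMG 3, against 4, 3 and 4 in NG 1 to NG 3 (exact permutation p = 0.3). CD7 varied most, with 8, 9 and 8 peaks in SMG libraries, against 5, 9 and 6 in NG libraries (exact permutation p = 0.4). CD58 had 7 to 8 in SMG and 5 to 8 in NG libraries, CD48 had 6 in each SMG and 4 to 6 in NG libraries, and CD5 had 7 to 8 in both groups (exact permutation p = 0.7, 0.4 and 1).

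By the share of the window under peaks, CD2 and CD6 were without overlap. CD2 had 2.07, 2.25 and 2.35% in SMG 1 to SMG 3, against 1.38, 1.76 and 1.44% in NG 1 to NG 3. CD6 had 2.75, 3.61 and 2.82% in SMG 1 to SMG 3, against 2.2, 2.63 and 2.58% in NG 1 to NG 3. Both differences had an exact permutation p of 0.1, two-sided, and an adjusted p of 1, and every SMG library was above every NG library for 6.29% of all gene windows and below for 1.41%. NG 1, with the lowest recovered background, was the lowest library for each of the 6 genes, and the part of depth in these differences was not tested.

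**Figure D3:**
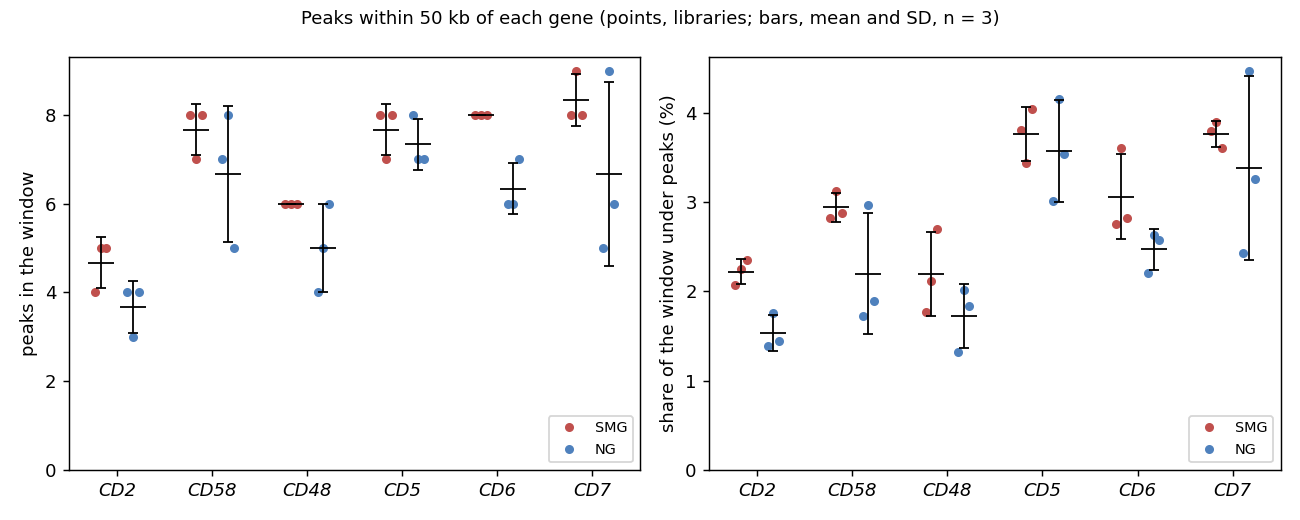
Number of peaks (left) and percent of bases under peaks (right) within 50 kb of each gene, with SMG left of NG; points are libraries and bars are means with SD (n = 3). For CD6 the SMG libraries all hold 8 peaks and the NG libraries 6 or 7, while for CD7 the NG libraries spread from 5 to 9.

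Over all 6 libraries the share of the window under peaks put the genes in the order CD5 (3.67% ± 0.421, SD, n = 6 libraries), CD7 (3.58% ± 0.689), CD6 (2.77% ± 0.466), CD58 (2.57% ± 0.602), CD48 (1.96% ± 0.456) and CD2 (1.88% ± 0.411). CD5 and CD7, CD6 and CD58, and CD48 and CD2 differed by less than the SD of either gene in the pair. Windows include the neighbours of a gene, as described for CD5 and CD7. The median of the 6 genes was 2.67%, against 1.33% over all 20037 protein-coding genes, and in peaks per 100 kb it was 4.7 against 2.29. CD7 had 7.3 peaks per 100 kb, more than 96.2% of protein-coding genes, and CD2 3.63, more than 71.7%. The genes most like each member in bases under peaks over the 6 libraries, outside these windows, were HNRNPC for CD2, ZNF213 for CD58, CDC37 for CD48, ZDHHC5 for CD5, TMPO for CD6 and NAA16 for CD7. Their mean absolute differences from the member ran from 112.5 bp for HNRNPC to 197 bp for ZNF213. The match was on bases and not on the share of the window, and window lengths differed. The window of ZNF213 was 108 kb, against 156 kb for CD58, and that of NAA16 166 kb, against 103 kb for CD7.

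**Figure D4:**
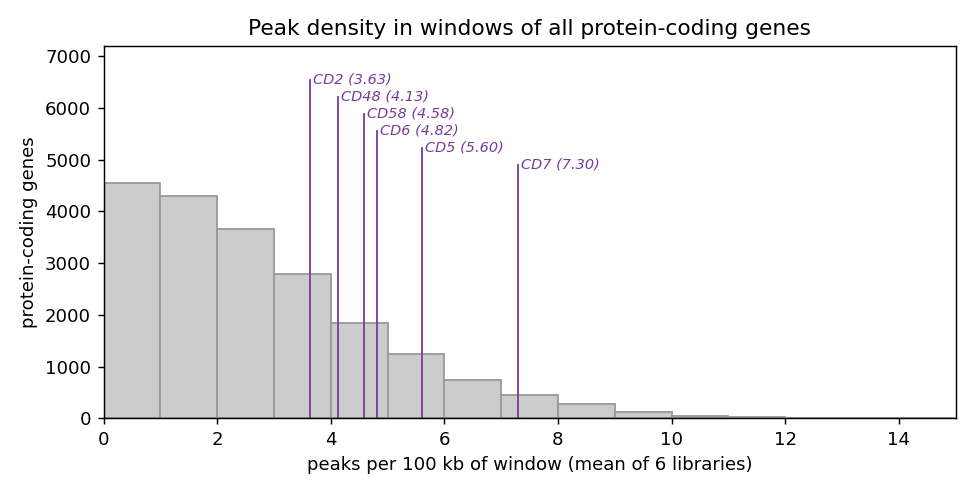
Histogram of peaks per 100 kb of window (x axis, mean of 6 libraries) for all protein-coding genes (y axis, number of genes), with vertical lines at the 6 genes and their values. All 6 lie above the median of 2.29, from CD2 at 3.63 to CD7 at 7.3.

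Relatives and partners of the 6 genes were compared by peaks within 1 kb of a gene end, where 46.6% of protein-coding genes had one in all 6 libraries. Of 11 genes of the CD2 and SLAM family, 4 had one in all 6 libraries, namely CD2, CD58, CD84 and LY9, and SLAMF7 and SLAMF9 had none. CD84, a SLAM receptor that binds itself, stood highest, at a mean percentile of 97.7, above CD2 at 93, while LY9 stood at 49.8. In CD2 the peaks at the start and at the far end both count here, and the percentile comes from the far end. SLAMF1 and CD48 each had one in 2 SMG libraries and 1 NG library, CD244 and SLAMF8 in 1 SMG library, and SLAMF6 in 1 NG library.

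Of 18 genes whose products bind the 6 proteins or carry their signals, every library had a gene-end peak for 12, and no library for 4. The strongest were CD2AP, an adaptor at the tail of CD2 (mean percentile 99), FYN, a kinase of T-cell signalling (97.4), and ALCAM, the ligand of CD6 (90.6). LCK, LCP2 and UBASH3A, which act downstream of the T-cell receptor, stood at 75.3, 73.4 and 68.3. SH2D1A, the adaptor of SLAM receptors, stood at 51.1, whereas its relative SH2D1B had none, as had CDCP1, SECTM1 and LGALS1. The share of this list with a gene-end peak was 66.7 to 77.8% in SMG libraries and 66.7 to 77.8% in NG libraries, and that of the CD2 and SLAM family 45.5 to 63.6% in SMG and 36.4 to 63.6% in NG libraries.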

How the data were processed

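The authors deposited 1 peak list per library without a header, in the narrowPeak layout of MACS2. Per the submitters' processing notes, FastQC, BWA, Bowtie, SAMtools and MACS2 were used with hg38; the sources used here do not give versions, settings, duplicate handling or read shifts. Each deposited list holds a score, a fold enrichment of the summit over local background (a linear ratio), a −log10 p-value and a −log10 q-value per peak, as the authors' peak caller gave them. Peaks were called per library, as the deposited peak names show; names of SMG 3 carry the unexplained word "normalized".

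From these lists, peaks were ranked by −log10 q-value within each library, merged where they overlapped by at least 1 bp, and assigned to genes of the RefSeq table (GRCh38.p14, 20037 protein-coding genes). Strand and starts came from a RefSeq promoter table, which held 3 of the 6 genes, CD2, CD58 and CD48; for CD5, CD6 and CD7 ends are named by coordinate. Exons and introns were not analysed here. Pileups were recovered from fold and p-value with MACS2's formulas, within 0.001 of the deposited −log10 p-value for 99.947 to 99.966% of peaks. Means were compared by exact permutation tests, two-sided, over the 20 assignments of 6 libraries to groups of 3, with Benjamini-Hochberg adjustment over all regions or windows of the series; the smallest possible p is 0.1, so none could pass 0.05. Code was tested on simulated data. Alternatives were other windows (10 and 100 kb), overlap rules, score thresholds, left-out libraries and a replicate block.

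The 6 genes, the lists and the tests were chosen with earlier results of these data known. Every gene was described with the regions across its ends, where it had any, and with any region of 1 group. Regions held by all libraries are all in the counts, but only a selection of them is given with position and values. Other genes were named as nearest gene ends, as members of the 2 lists or cell type markers, or as most like in covered bases. Regions held by other numbers of libraries were chosen after their values were seen. Python 3.11.15, numpy 2.4.6, pandas 2.3.3, scipy 1.17.1 and matplotlib 3.10.9 were used. Some marker genes of other cell types are not reported here by name.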

Additional observations from a re-analysis of the deposited data

How the results depend on the processing

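No comparison of the groups could pass 0.05 in 3 against 3 libraries, so the alternatives bear on direction and counts. With a deposited score of at least 100 the SMG minus NG difference reversed for all peaks in the windows (−0.333), for their median percentile (5.53) and for CD7 (−1.33), was 0 for CD2 and CD58, and 10 regions were held by all 6 libraries and 0 by SMG libraries alone; the cause was not tested. With 10 kb windows CD7 reversed (−0.333), CD58 and CD5 stood at 0, and 16 regions were held by all libraries, as fewer bases were searched. With the overlap rule set by peak centre and by the share of a region covered, 17 regions were held by all 6 libraries. With the strongest 37782 peaks of each library CD5 reversed (−0.667), CD58 stood at 0, and 2 SMG-only regions were counted, the start of CD2 and a region near TEX19. Leaving out 1 library gave 1 to 4 SMG-only regions (4 without NG 2 and 4 without NG 3, since fewer NG libraries then had to lack a peak), always with the start of CD2, 0 NG-only regions, 25 to 26 regions held by all, and 5.5 to 7.5 more peaks in SMG libraries. Across left-out libraries the difference ran from 2.27 kb (without NG 1) to 6.06 kb (without NG 2) for bases under peaks and from −10.6 to −7.08 for the median percentile. For all peaks in the windows, equal peak numbers, 100 kb windows and the overlap rule kept the direction and the smallest p (0.1), while 10 kb windows gave 2.67 peaks (exact permutation p = 0.3). The median percentile difference shrank to −5.73 with 10 kb, −3.67 with 100 kb windows and −6.55 with equal peak numbers, and CD6 to 1.33 peaks with 10 kb windows and with equal peak numbers. At a score of at least 100 the CD6 difference was 0.333 peaks.

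Same-numbered libraries did not deviate together (r = −0.00966, 0.0168 and −0.0181 over 67844 regions). Pairs with unlike numbers gave r from −0.026 to 0.0321. The labels do not say whether same-numbered libraries were prepared together. These correlations cannot decide it, since a shared preparation need not leave a shared deviation. With the replicate number as a block the difference in peaks was 6.33 with an exact permutation p of 0.25, the smallest 3 pairs allow; no call changed.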
